A study of Mus musculus with 2 samples.

Results

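The T-box transcription factors described here are 9 genes chosen by symbol (Tbx1, Tbx2, Tbx3, Tbx4, Tbx5, Tbx6, Tbx15, Tbx18 and Tbx20) out of 34236 gene symbols. Each had a single row in both tables. The tissue was whole mouse heart at embryonic day 12.5, from animals of a mixed C57BL/6 x 129S6 background with no treatment named. RNA sequencing gave 2 libraries, called replicate 1 and replicate 2, which form a single group. No source used here says whether they came from separate embryos, pools or litters, so the spread between them may be technical. Levels are FPKM (sequenced fragments per transcript length, adjusted for library size), and means are given ± SD over the 2 libraries (n = 2).

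T-box proteins bind DNA through a shared domain, the T-box, and recognise a short element with the core AGGTGTGA. Tbx5 and Tbx20 are known for switching on genes of the working chamber muscle together with Nkx2-5 and GATA factors. Tbx2 and Tbx3 occupy similar elements but repress chamber genes, which keeps the atrioventricular canal and the pacemaker tissue in a slow-conducting state. Tbx18 is known from the epicardium and the sinus node region. Tbx1 acts in the pharynx and the cardiac progenitors of the outflow tract, Tbx4 in hindlimb, lung and allantois, Tbx6 in presomitic mesoderm and Tbx15 in limb, skin and skeletal mesenchyme. Tbx2 lies next to Tbx4, and Tbx3 next to Tbx5, an arrangement attributed to duplication of an ancestral pair.

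Over all genes FPKM added up to 388230 in the library of replicate 1 and 382561 in the other. Absolute depth is unknown. Among genes under 0.1 FPKM the commonest ratio of values showed that a fragment was worth 1.33 times as much in replicate 2, so replicate 1 was the deeper. All 10 heart identity markers were at 1 FPKM or more in both libraries, with Actc1, the cardiac alpha actin, at 4383 and 4244 FPKM. Of 5 liver markers 0 reached that level in both, and the sum over these markers was 1.92 FPKM in replicate 1 and 3.63 FPKM in replicate 2. Of 5 skeletal muscle markers only Ckm did, a creatine kinase that heart muscle also makes, while the myogenic regulator Myod1 was at 0.124 and 0.0863 FPKM. In whole-organ RNA, fewer cells of a type and less RNA per cell cannot be told apart.

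Of the 9 members 5, or 55.6%, were at 1 FPKM or more in both libraries, a level called detected below. That share is near the background of 52.4% of 22240 protein-coding symbols and above 36.2% of all symbols. The same 5 passed a limit of 0.5 FPKM, which 56.3% of protein-coding symbols passed, and 4 passed 5 FPKM, which 38.4% did. The detected members were Tbx20, Tbx18, Tbx5, Tbx2 and Tbx3. The other 4, Tbx6, Tbx4, Tbx1 and Tbx15, stayed under 0.5 FPKM in both libraries. No member lay between these sets: the lowest value of a detected member was 3.13 FPKM and the highest of an undetected member 0.359 FPKM. The median of the members was 3.59 FPKM, against 1.68 FPKM for protein-coding symbols.

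**Figure D1:**
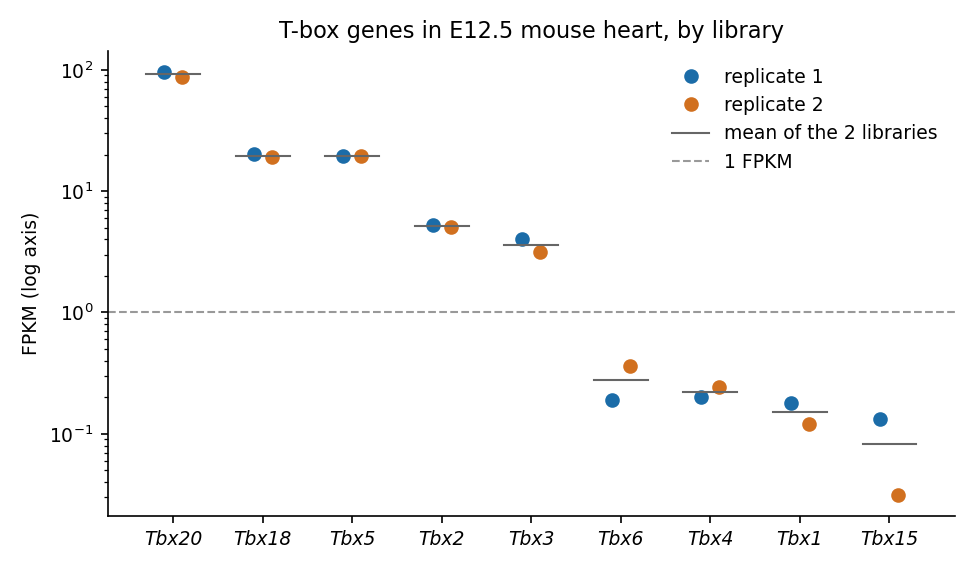
FPKM of the 9 T-box genes (log axis) in replicate 1 (blue) and replicate 2 (orange), with the mean as a bar and 1 FPKM as a dashed line. Tbx20 stands highest at 96.3 and 87.5 FPKM, Tbx18 and Tbx5 lie together near 19.6 FPKM, and 4 genes lie below the dashed line.

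Tbx20, an activator and repressor needed for chamber growth and valve formation, was the highest T-box gene, at 96.3 FPKM in replicate 1 and 87.5 FPKM in replicate 2 (chromosome 9, 24527648 to 24578746, minus strand; positions of genes here and below are those of the files, on mm9). Its mean of 91.9 ± 6.23 FPKM was at or above that of 97.6% of protein-coding symbols. Tbx20 supplied 62.0% of the summed FPKM of 17 T-box genes in replicate 1 and 61.4% in replicate 2.

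Tbx5, the factor whose loss of a single copy causes Holt-Oram syndrome, was at 19.6 and 19.5 FPKM (chromosome 5, 120284672 to 120335227, plus strand). The libraries hardly differed for this gene, with an SD of 0.132 around a mean of 19.5 FPKM. Tbx20 exceeded Tbx5 4.91-fold in replicate 1 and 4.50-fold in replicate 2.

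Tbx18 was at 20.4 and 19.0 FPKM (chromosome 9, 87597635 to 87626095, minus strand). Its values enclosed those of Tbx5: it was the higher of these genes in replicate 1 and the lower in replicate 2. Their order was therefore not resolved by the spread between libraries. Together Tbx20, Tbx18 and Tbx5 made up 87.8% and 88.4% of the T-box sum.

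Among the repressors, Tbx2 was at 5.27 and 5.10 FPKM (chromosome 11, 85646053 to 85655450, plus strand) and Tbx3 at 4.05 and 3.13 FPKM (chromosome 5, 120120678 to 120134733, plus strand). The ranges of these close relatives did not overlap, and Tbx2 exceeded Tbx3 1.30-fold and 1.63-fold. The spread between libraries does not cover errors that differ from gene to gene, such as the transcript form behind FPKM. Tbx3 showed the largest difference between the libraries among the detected members, -0.29 (replicate 2 minus replicate 1, on the log2(FPKM + 1) scale). The 95th percentile of the size of such differences was 0.32 over 12637 genes averaging at least 1 FPKM, so Tbx3 stayed just inside it. Of these genes 5% lay beyond by construction, and 0 of the 9 members did. Only 5 members average at least 1 FPKM, as these genes do. On this scale Tbx1, Tbx4 and Tbx15 were too low to lie beyond, even against a value of 0 in the other library. All 5 detected members were lower in replicate 2 as deposited. After replicate 2 was rescaled by 1.03, the factor that aligns genes at 5 FPKM or more, Tbx5 was the exception, at 0.03 higher in replicate 2 on this scale. The median difference over the 12637 genes was -0.04.

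The undetected members lay close together. Tbx6 was at 0.192 and 0.359 FPKM (chromosome 7, 133924997 to 133929074, plus strand), and Tbx4 was at 0.20 and 0.243 FPKM (chromosome 11, 85699924 to 85729599, plus strand). Tbx1 was at 0.180 and 0.121 FPKM (chromosome 16, 18581806 to 18588113, minus strand), and Tbx15 at 0.132 and 0.0316 FPKM (chromosome 3, 99044304 to 99158182, plus strand). The ranges of Tbx6 and Tbx4 overlapped, as did those of Tbx1 and Tbx15, whereas those of Tbx4 and Tbx1 were separated by a small gap, from 0.180 to 0.20 FPKM. Tbx6 was 1.87 times as high in replicate 2 and Tbx15 was 0.239 times as high there. At this level a value can rest on few fragments, and no counting interval can be given. These 4 genes together made up 0.453% and 0.530% of the T-box sum.

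The T-box family has other genes that serve as a comparison. Mga, a large protein that joins a T-box to a Max-binding domain and is widely expressed, was at 8.83 and 7.42 FPKM, between Tbx5 and Tbx2. The other 7 were under 0.1 FPKM in both libraries. The T cell and brain factors Tbx21 and Tbr1 reached at most 0.0243 and 0.0578 FPKM. Eomes, a factor of gastrulation, reached 0.0480, T (Brachyury), the founding member of the family, 0.0368, Tbx10 0.0210 and Tbx19, a pituitary factor, 0.0208 FPKM. Tbx22, a gene of palate development, was listed at 0 in both libraries, and T, Tbx19 and Tbx21 were listed at 0 in replicate 1. In all 6 of 17 T-box genes, or 35.3%, were detected, a share below the 52.4% of protein-coding symbols and near the 36.2% of all symbols.

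The linked pairs gave opposite orders. On chromosome 11 Tbx2 exceeded Tbx4 26.4-fold in replicate 1 and 21.0-fold in replicate 2. On the log2(FPKM + 1) scale this was a ratio of 2.38 and 2.29 (mean 2.34 ± 0.06). On chromosome 5 it was the other gene that was higher: Tbx5 exceeded Tbx3 4.84-fold and 6.21-fold, and the log2 ratio of Tbx3 to Tbx5 was -2.03 and -2.31 (mean -2.17 ± 0.20). The Tbx2 group gene thus supplied 96.3% and 95.4% of the FPKM of its pair on chromosome 11, against 17.1% and 13.9% on chromosome 5. The difference between the log2 ratios was 4.41 in replicate 1 and 4.60 in replicate 2 (mean 4.51 ± 0.13). Each ratio had the same direction in both libraries and was larger than its SD. With 2 libraries an exact two-sided sign-flip test cannot go below 0.5, so no test was made. With a pseudocount of 0.1 FPKM in place of 1 the difference between the pairs was 6.46, since Tbx4 is low.

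The pairs also differed in total. Tbx2 and Tbx4 together gave 5.47 and 5.34 FPKM, and Tbx3 and Tbx5 together 23.7 and 22.6 FPKM. Of the 4 linked genes, Tbx5 and Tbx4 lay farthest apart, with Tbx5 at 98.4 and 80.0 times the FPKM of Tbx4, and Tbx2 and Tbx3 lay closest.

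**Figure D2:**
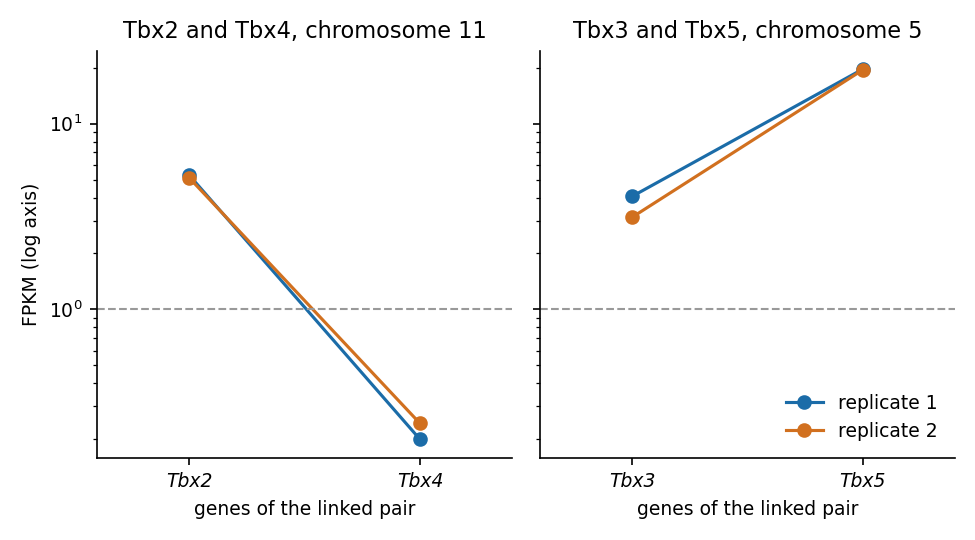
FPKM (log axis) of the linked genes Tbx2 and Tbx4 on chromosome 11 and Tbx3 and Tbx5 on chromosome 5, with a line for each library and 1 FPKM dashed. The lines run down from Tbx2 to Tbx4 (5.27 to 0.20 FPKM in replicate 1) and up from Tbx3 to Tbx5 (4.05 to 19.6 FPKM).

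Tbx2, Tbx3 and Tbx5, the detected genes of the linked pairs, are relatives with separate transcripts. Tbx4, whose coding sequence gave the best-scoring alignment with Tbx5, was left out here. The 90 coding bases in which the 3 genes are most alike are printed to show what they share. The stretch was chosen for its likeness and does not measure how far the genes have diverged. They come from the transcripts of GENCODE M21 on GRCm38, in reading frame from 5′ to 3′, and capitals mark bases that differ from Tbx2.
Tbx2: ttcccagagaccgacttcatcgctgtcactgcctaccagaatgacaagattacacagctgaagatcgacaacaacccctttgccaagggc
Tbx3: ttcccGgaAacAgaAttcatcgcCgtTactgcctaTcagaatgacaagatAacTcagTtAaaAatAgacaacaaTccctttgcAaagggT
Tbx5: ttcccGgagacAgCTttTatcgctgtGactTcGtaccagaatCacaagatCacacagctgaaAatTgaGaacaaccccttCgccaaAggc
Of the 90 positions 66 were the same in all 3 genes. Tbx2 differed from Tbx5 at 15 positions and from Tbx3 at 16, while Tbx3 differed from Tbx5 at 21. Each gene had its own sequence here, and no run of 50 bases in any transcript of a member was found in a transcript of another member.

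The members most alike in coding sequence included both near and distant levels. Over local alignments of the coding sequences, the best-scoring of 36 pairs was Tbx4 and Tbx5, with 77.4% identity over 637 columns, and their mean levels differed 88.3-fold. Next came Tbx15 and Tbx18, a related pair known from mesenchyme, with 76.2% identity over 671 columns. Tbx18 was at 19.7 ± 0.962 FPKM and Tbx15 at 0.0817 ± 0.0710 FPKM. Tbx2 and Tbx3 followed with 71.7% identity over 706 columns and mean levels of 5.18 ± 0.120 and 3.59 ± 0.654 FPKM. Tbx2 and Tbx5 aligned with 69.1% identity over 537 columns, so over these longer alignments Tbx2 was closer to Tbx3, unlike in the printed stretch. This is a description of 3 pairs in 1 tissue. Tbx20 aligned with its relative Tbx1 at 68.8% identity, and these genes stood at 91.9 ± 6.23 and 0.151 ± 0.0417 FPKM. The best-scoring alignment of Tbx20 was with Tbx15, at 69.6% identity, just ahead of that with Tbx1.

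Gene structure was shared across the whole range of levels. The longest coding form had 7 coding exons in Tbx1, Tbx2 and Tbx6 and 8 in Tbx3, Tbx4, Tbx5, Tbx15, Tbx18 and Tbx20. Coding sequences ran from 1311 bases in Tbx6 to 2223 bases in Tbx3. The Tbx20 transcript was the longest at 9091 bases, of which 1335 are coding, and the longest coding form of Tbx6 was the shortest transcript at 1529 bases. The transcript form that the authors' FPKM used is not given in the sources used here.

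The linked pairs lie in different surroundings. The gap between Tbx2 and Tbx4 was 44.5 kb and that between Tbx3 and Tbx5 149.9 kb, so the pairs span 83.5 and 214.6 kb. Within 500 kb of the Tbx2-Tbx4 span were 6 other protein-coding genes, of which 5 were detected. Over all protein-coding symbols 52.4% were detected, and the count of neighbours was not tested. Bcas3, whose end lies 6.49 kb before the start of Tbx2, was at 7.0 ± 0.398 FPKM, above Tbx2. On the far side of Tbx4, the helicase gene Brip1 was at 1.66 ± 0.0324, the Integrator gene Ints2 at 6.01 ± 0.512 and the Mediator gene Med13 at 7.28 ± 0.995 FPKM. The antisense gene 4632419I22Rik, at 20.3 ± 0.0358 FPKM, spans Ints2 and overlaps Med13 on the opposite strand. The strand setting of the counting is not given, so reads of these overlaps cannot be assigned with certainty. Ppm1d, a phosphatase gene, was at 7.70 ± 0.420 FPKM. The remaining gene, Gm11444, sits between Tbx2 and Tbx4 and was listed at 0 and 0.0382 FPKM. Detected genes thus flanked both sides of Tbx4, which was itself not detected. Around Tbx3 and Tbx5 there was 1 other protein-coding gene in the window, Rbm19, a factor of ribosome assembly, at 5.46 ± 0.443 FPKM. Tbx5 exceeded it and Tbx3 lay below it in both libraries.

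**Figure D3:**
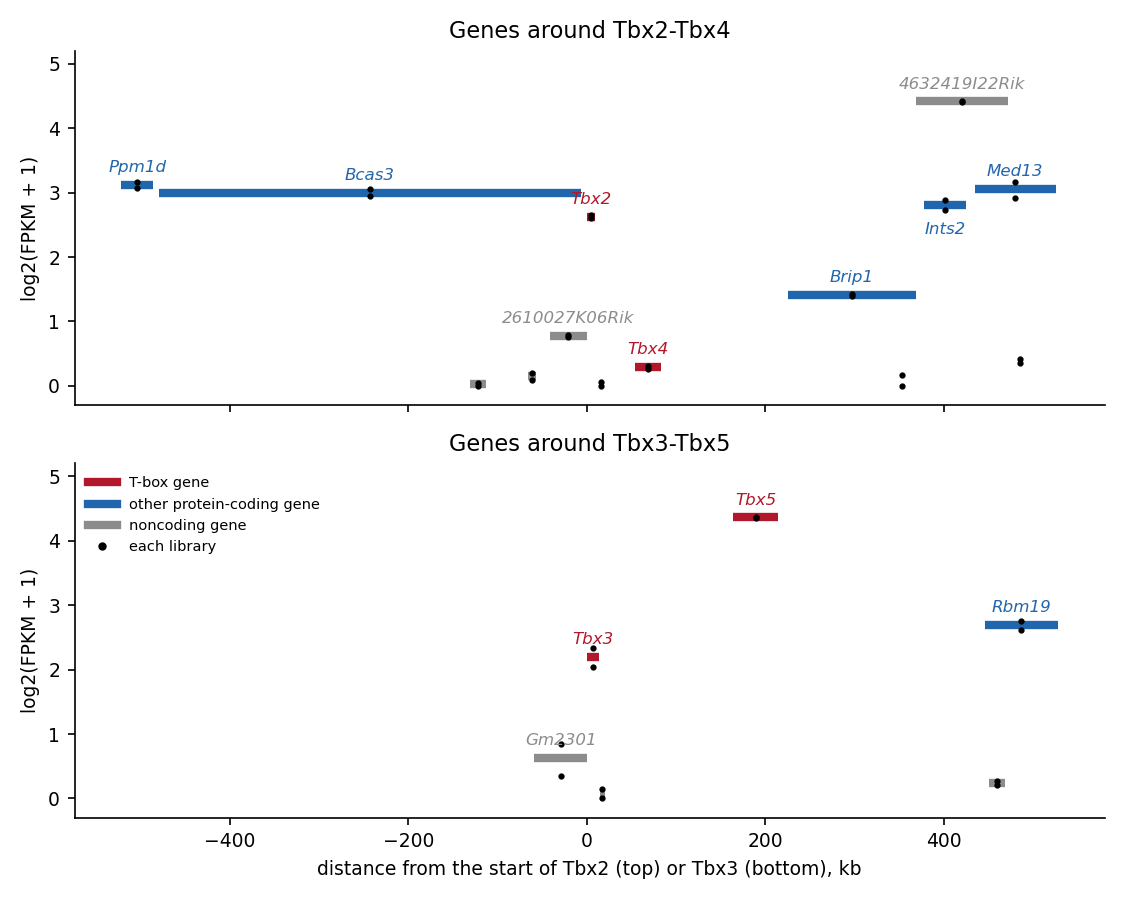
Genes within 500 kb of each linked pair, with length along the genome as a bar against distance from the start of Tbx2 (top) or Tbx3 (bottom) in kb, at the mean level as log2(FPKM + 1), and the libraries as dots. Genes at 0 in both libraries are left out. Tbx4 lies near 0 between detected genes, and Tbx5 is the highest gene of the lower panel.

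Noncoding genes abut both Tbx2 and Tbx3. A lincRNA on the opposite strand, 2610027K06Rik, starts 0.328 kb from the start of Tbx2, is transcribed away from it and was at 0.684 and 0.728 FPKM. The antisense gene Gm2301, which GENCODE M21 names Tbx3os1 under the same gene ID, overlaps the start of Tbx3 by 697 bases. Gm2301 was at 0.805 FPKM in replicate 1 and 0.278 FPKM in replicate 2, lower in the library in which Tbx3 was also lower. The strand setting of the counting is not given, so reads of this overlap cannot be assigned with certainty, and its part in the Tbx3 values was not tested. Of 6660 50-base words in annotated Tbx3 transcripts, 67 also occur in the antisense gene. Tbx18 shares 836 of its 4668 words with D030062O11Rik, an unverified transcript on the opposite strand in GENCODE M21, which is not analysed here. Reads of these words cannot be assigned with certainty either, and their part in the Tbx18 values was not tested. In the files Tbx3 was the only member that overlapped another gene.

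Genes on which T-box factors are known to act were examined as lists. The lists were chosen with earlier results of these data known, and their counts were not tested. Beside each count below stands the same background: 52.4% of protein-coding symbols and 36.2% of all symbols were detected. All 15 chamber myocardium genes were detected, with a median of 86.0 FPKM. Nppa, the atrial natriuretic peptide gene and a classical target of both Tbx5 and the repressors Tbx2 and Tbx3, was at 1120 and 1244 FPKM. The connexin gene Gja5, which depends on Tbx5 dosage, was at 63.9 and 68.1 FPKM. Cited1 and Smpx, markers of chamber muscle, were at 241 ± 2.95 and 221 ± 5.55 FPKM. The cardiac growth factor Bmp10 was at 22.0 ± 1.34 FPKM.

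Of 15 genes of the atrioventricular canal and conduction system, where Tbx2 and Tbx3 are known to be expressed, 13 were detected, with a median of 4.61 FPKM. Bmp2, which induces Tbx2 in the canal, was at 6.03 and 6.10 FPKM, close to Tbx2 itself. Bmp4 was at 21.7 ± 0.571 and the canal and cushion factors Twist1, Msx1 and Msx2 at 21.9 ± 0.729, 4.61 ± 0.357 and 2.24 ± 0.0151 FPKM. Of pacemaker genes, the channel gene Hcn4 was at 8.68 ± 0.349 and the sinus node factor Shox2 at 10.01 ± 0.675 FPKM. The calcium channel gene Cacna1g was at 4.67 and 3.52 FPKM. The connexin gene Gjd3 was at 1.10 and 1.28 FPKM. Cntn2, a marker of Purkinje fibres, was at 0.0530 ± 0.0104 FPKM and was not detected. The chamber list thus had the higher median of these lists.

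Partners and cofactors of T-box proteins were detected in 17 of 18 cases, with a median of 24.9 FPKM. Gata4, which cooperates with Tbx5, was at 96.0 and 97.0 FPKM, so that Tbx20 was just above it in replicate 1 and below it in replicate 2. Nkx2-5 was at 53.4 and 54.7 FPKM. The remodelling subunit Smarcd3 (Baf60c) was at 47.5 ± 1.96 and the NuRD helicase Chd4 at 51.8 ± 5.37 FPKM. The corepressors Tle3 and Tle1, of the Groucho group, were at 9.85 ± 0.333 and 6.31 ± 0.390 FPKM. Sall4, a zinc finger partner of Tbx5, was the member not detected in both libraries, at 0.774 and 0.990 FPKM.

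Tbx18 was set beside epicardial genes, all 10 of which were detected, with a median of 10.2 FPKM. Tbx18 lay below Upk3b at 63.1 ± 0.434 and Tcf21 at 32.1 ± 0.610 FPKM and above Wt1 at 13.4 ± 0.270 FPKM. Its 20.4 and 19.0 FPKM were close to the 20.4 and 19.2 FPKM of Aldh1a2, the retinoic acid synthesis enzyme of the epicardium. The low members were set beside genes of the tissues in which they act. Genes of the pharynx and the second heart field were detected in 5 of 13 cases. This share is below the 52.4% of protein-coding symbols and near the 36.2% of all symbols. Wnt11, Foxc1 and Foxc2 were at 9.74 ± 0.398, 7.32 ± 0.0235 and 6.68 ± 0.0260 FPKM, and Isl1, which other lists share, at 2.26 ± 0.204 FPKM. Fgf8, a gene downstream of Tbx1, was at 0.188 and 0.0744 FPKM, and the pouch genes Pax1 and Gcm2 at 0.00338 ± 0.00478 FPKM and at 0. Of 10 lung and hindlimb genes 1 was detected, Wnt2 at 3.73 ± 0.165 FPKM, and Fgf10, a target of Tbx4 and Tbx5 in lung and limb, was at 0.743 and 1.02 FPKM. The hindlimb gene Pitx1 was at 0.0320 ± 0.0262 FPKM. Of 10 presomitic mesoderm genes 2 were detected, Dll1 at 3.78 ± 0.189 and Lfng at 1.42 ± 0.145 FPKM, both Notch pathway genes used in other tissues too. Mesp2 and Msgn1, which act with Tbx6 in that tissue, were at 0.196 ± 0.00769 and 0.0479 ± 0.0153 FPKM. Of 10 body wall and limb mesenchyme genes 3 were detected, Prrx2 at 33.5 ± 0.0750, Prrx1 at 6.64 ± 0.510 and Twist2 at 1.42 ± 0.267 FPKM, while Alx4 was at 0.315 ± 0.0468 FPKM.

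**Figure D4:**
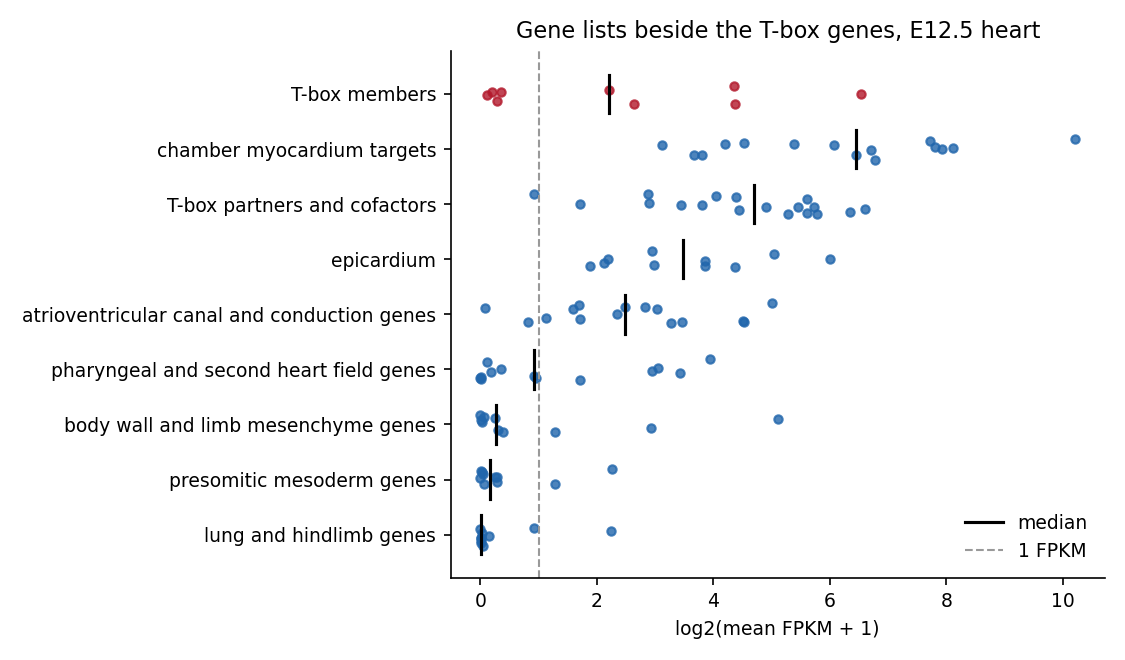
Mean level of each gene as log2(mean FPKM + 1), with the T-box members in red and 8 lists in blue, the list median as a black bar and 1 FPKM dashed. Vertical position within a row is only to separate the points. The chamber list has its median at 86.0 FPKM, the canal and conduction list at 4.61 FPKM, and the lists of tissues in which the low members act have medians under 1 FPKM.

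Sequence before the transcription start was available for 5 of the 9 members (Tbx1, Tbx4, Tbx6, Tbx18 and Tbx20) in RefSeq promoter windows on GRCm38.p6, which hold 250 bases before and 50 after the start. The entries of Tbx2, Tbx3, Tbx5 and Tbx15 are named only. The promoters of the highest member and of an undetected member are printed to show their contrast in base composition, with CpG pairs in capitals. The Tbx20 sequence is the minus strand of chr9:24774304-24774553 and the Tbx4 sequence the plus strand of chr11:85896515-85896764.
Tbx20: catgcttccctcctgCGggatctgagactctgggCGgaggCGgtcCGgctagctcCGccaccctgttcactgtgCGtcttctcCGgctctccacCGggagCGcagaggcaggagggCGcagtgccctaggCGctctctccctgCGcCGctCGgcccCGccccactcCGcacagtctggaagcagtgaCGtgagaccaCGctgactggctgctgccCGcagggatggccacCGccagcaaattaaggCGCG
Tbx4: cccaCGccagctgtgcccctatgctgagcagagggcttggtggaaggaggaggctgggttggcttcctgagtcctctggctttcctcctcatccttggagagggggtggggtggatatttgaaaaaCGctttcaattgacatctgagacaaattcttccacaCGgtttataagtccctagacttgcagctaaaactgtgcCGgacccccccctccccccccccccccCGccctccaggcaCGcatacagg
The printed Tbx20 sequence holds 22 CpG pairs and the Tbx4 sequence 6. Over the whole windows of 300 bases Tbx20 had 26, Tbx18 15, Tbx4 8 and Tbx6 7, against a median of 7 over 32851 promoters. CpG number did not order the members by level, since a Tbx1 promoter also had 26 and the other had 16.

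The T-box motif AGGTGTGA was searched on both strands in these windows. None of the 6 member promoters held it, and 1.28% of all promoters did. Of the 12 chamber genes with a promoter in the table, Nppa alone held it. The sequence is printed because Nppa is the most abundant gene of the chamber list. It is the plus strand of chr4:148000472-148000721, with capitals for the motif, found here as its reverse complement TCACACCT, and for the TATAAA near the start.
Nppa: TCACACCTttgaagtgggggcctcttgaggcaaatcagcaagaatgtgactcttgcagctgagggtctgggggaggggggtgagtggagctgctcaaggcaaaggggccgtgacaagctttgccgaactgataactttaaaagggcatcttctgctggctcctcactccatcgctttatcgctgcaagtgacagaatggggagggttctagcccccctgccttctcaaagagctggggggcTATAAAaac
The motif begins 250 bases before the annotated start, at the edge of the window. Its shorter core GGTGTG, which the longer motif contains, was found in 3 of the 12 chamber genes (Nppa, Nppb and Hey2) and in 0 of the 6 member promoters. The 12 chamber genes have 14 promoters in these windows, of which 3 held GGTGTG, near the 19.0% of all promoters. A match describes letters in this window and is not a measured site.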

How the data were processed

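Trizol-extracted total RNA went into Illumina TruSeq RNA v2 libraries, per the labels' protocols. The authors deposited 1 FPKM table per library, and FPKM is the unit per the file headers. GSNAP, Cufflinks and Cuffnorm are named, with builds mm9 and hg19, per the submitters' processing notes; their versions, the annotation and the strand setting were not found in the labels or headers.

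Rows of a symbol were summed. Ratios used log2(FPKM + 1), which understates differences of low genes, and detected means 1 FPKM or more in both libraries. The samples form 1 group, so no test was fitted. Members, 12 gene lists (122 genes, 121 found as written and Foxf1 by its gene ID) and pairs were chosen with earlier results of these data known. Genes were named by rule: all T-box genes, the neighbours of the linked pairs, and members of the lists, in 4 lists any member and in the others the 3 highest and up to 2 lowest. Foxc2, Fgf8, Mesp2, Msgn1, Pitx1, Alx4 and the noncoding genes lie outside it and were chosen after their values were seen. A comparison of proteins was replaced by coding sequences of GENCODE M21 (local alignment, Biopython 1.88). Alternatives were a pseudocount of 0.1, limits of 0.5 and 5 FPKM, rescaling, taking only the highest row of a symbol, and using either library by itself. Some genes and sequences are not reported here. Steps were tested on simulated data. Python 3.11.15, NumPy 2.4.6 and pandas 2.3.3 were used.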

Additional observations from a re-analysis of the deposited data

How the results depend on the processing

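Of 133 values computed under the alternatives for 26 results, 12 moved by more than the spread between the libraries or, for counts, by more than 1.5 times, and these are given here. For pair ratios and member levels, the value of a single library always lies within this spread of the mean, so it could not move. Taking the highest row could not change them either, since each member has a single row. The share that moved is therefore not a measure of robustness. The log2 ratios of the linked pairs kept their direction under each alternative run; levels and counts cannot change sign. The number of detected members was 5 with each library alone, with the highest row per symbol, after rescaling and at 0.5 FPKM, and 4 at 5 FPKM, where Tbx3 dropped out. With a pseudocount of 0.1 FPKM the log2 ratio of Tbx2 to Tbx4 was 4.04, that of Tbx3 to Tbx5 -2.42 and their difference 6.46, since a smaller pseudocount compresses low values less. With either library left out these values ranged from 2.29 to 2.38, from -2.31 to -2.03 and from 4.41 to 4.60. With the pseudocount of 0.1 FPKM, 2 members, Tbx6 and Tbx15, lay beyond the 95th percentile of differences between the libraries. Rescaling replicate 2 by 1.03 moved the mean of Tbx5 to 19.8 FPKM, by more than its small SD. At a limit of 5 FPKM the canal and conduction list had 7 genes detected, and the lung and hindlimb and the presomitic lists 0. At 0.5 FPKM the lung and hindlimb list had 2 and the liver list 2. With 1 library left out the lung and hindlimb list had 1 to 2 genes and the liver list 0 to 2, the higher counts in replicate 2 alone. Depth is unknown, so no interval can be set on the 4 undetected members.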
